A study of Mus musculus with 6 samples.

Results

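The 10 genes described here are the S100 genes S100a1, S100a4, S100a6, S100a10, S100a11 and S100a13 and the annexin genes Anxa1, Anxa2, Anxa3 and Anxa5. They are taken by gene symbol from a list drawn up with earlier results of these data known, and are 10 of the 55401 genes in the deposited expression table. RNA was sequenced from NIH-3T3 cells, a mouse embryonic fibroblast line, as 3 libraries of genotype WT and 3 of a mutated derivative (MU), all kept in the same serum-containing medium with no other treatment named. The title of the series concerns errors of mitochondrial translation, oxidative stress, arrest of the cell cycle and disease of heart muscle, but the labels of the libraries name neither the mutated gene nor the kind of mutation, and they do not say whether MU is 1 clone. Nothing in the labels says that replicates are separate cultures, and the p-values therefore reflect spread between libraries that may be only technical.

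Most S100 proteins, though not all, are small calcium sensors with EF-hand motifs. They mostly act as dimers and change the activity of the proteins they bind. Annexins bind acidic phospholipids of membranes when calcium rises, and take part in membrane repair, vesicle traffic and the linking of membrane to actin. The families meet in shared complexes: S100A10 binds annexin A2 and S100A11 binds annexin A1. In fibroblasts, genes of both families are among the strongly expressed ones, and S100a4 is widely used as a marker of fibroblasts.

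Of the 10 genes, 7 lie on mouse chromosome 3 (GRCm38, the assembly also called mm10). S100a1 and S100a13 point away from each other, with annotated starts 43 bases apart. S100a4 and S100a6 follow each other on the same strand with 6.84 kb between them, and S100a11 and S100a10 do so with 28.8 kb between them, 2.9 Mb further along. Windows of 100 bases upstream of the RefSeq start were found for 8 of the 10 genes. The TATA box letters TATAAA, searched on both strands, stood in the windows of S100a4, Anxa1 and Anxa2, that is in 3 of 8, against 5.56% of all 32851 RefSeq windows of the same length. The AP-1 letters TGACTCA or, on the other strand, TGAGTCA stood in those of S100a11 and Anxa2, in 2 of 8, against 1.88% of all windows. A match is only a run of letters, not a site shown to be used. RefSeq starts can differ from the GENCODE positions given for the genes further on. The Anxa1 window lies wholly inside the gene as GENCODE places it. Those of Anxa2, S100a11 and S100a1 reach into their genes, and the TATAAA of Anxa2 is in the part inside. The 6 windows printed from RefSeq, GRCm38.p6, 5′ to 3′ on the strand of the gene, are those with a match, in capitals, and those of the divergent genes S100a1 and S100a13, which share 96 bases. They lie at chr3:90603670-90603769 (plus strand) for S100a4, chr3:93520396-93520495 (plus) for S100a11, chr9:69453583-69453682 (plus) for Anxa2, chr19:20390672-20390771 (minus) for Anxa1, chr3:90514331-90514430 (minus) for S100a1 and chr3:90514335-90514434 (plus) for S100a13.
S100a4: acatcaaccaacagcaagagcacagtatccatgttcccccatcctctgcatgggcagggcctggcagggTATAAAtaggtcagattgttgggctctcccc
S100a11: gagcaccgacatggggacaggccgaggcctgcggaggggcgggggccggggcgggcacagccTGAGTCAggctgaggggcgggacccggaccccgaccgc
Anxa2: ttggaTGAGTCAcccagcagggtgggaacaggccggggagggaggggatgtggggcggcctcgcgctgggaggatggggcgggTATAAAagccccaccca
Anxa1: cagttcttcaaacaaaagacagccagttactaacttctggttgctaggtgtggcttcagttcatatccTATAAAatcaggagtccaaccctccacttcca
S100a1: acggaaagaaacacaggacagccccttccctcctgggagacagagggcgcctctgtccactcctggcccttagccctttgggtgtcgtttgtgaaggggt
S100a13: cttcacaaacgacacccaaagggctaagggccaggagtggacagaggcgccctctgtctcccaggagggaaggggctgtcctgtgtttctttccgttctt

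Levels are given as TPM, the share of a gene's transcripts among all transcripts of a library, scaled by transcript length, so that they can be compared between genes but keep no sequencing depth. WT replicate 2 lay at least 1.5 times above both other WT libraries in 4.85% of the 14209 genes tested. Such a share was not computed for the other libraries. The deviation of a library from its group mean was correlated with GC content across 14189 genes, which are not independent, with Spearman rho from -0.37 in WT replicate 3 to 0.45 in WT replicate 2. Summed fibroblast markers were 4903 to 6211 TPM in WT and 7365.5 to 7700.4 TPM in MU. Of 10, 8 were tested and 4, Col1a1, Col1a2, Thy1 and Ddr2, rose. The marker counts in this paragraph stand beside 7.12% higher and 11.6% lower over all tested genes. They are read as no result about cell types. Leukocyte and endothelial markers, 12 in all, summed to 6.51 to 8.72 TPM in WT and 10.9 to 13.4 TPM in MU, where of 3 tested Csf1r was higher and Cdh5 lower, and 8 epithelial ones to 0.79 to 1.54 and 1.60 to 2.31 TPM. For 10 muscle and adipocyte markers the sums were 1.80 to 4.15 and 4.90 to 5.53 TPM, with Myod1 and Myog at 0 in all libraries, and for 8 neural and glial ones 4.78 to 5.17 and 14.3 to 19.1 TPM, with Sox10 and Olig2 at 0 and Map2 higher of 3 tested. The part of these shifts in the results was not tested. In bulk RNA a change in the number of cells of a type and a change in RNA per cell cannot be told apart.

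In these fibroblasts 8 of the 10 genes were abundant and 2 were barely detected. S100a6 had a mean of 3615 TPM over the 6 libraries, S100a4 of 2753 TPM, S100a11 of 2327 TPM and S100a10 of 1393 TPM, which put them at ranks 28, 47, 62 and 120 of all genes in the table. The annexins followed with means of 830.4 TPM for Anxa2, 458.5 TPM for Anxa1, 338 TPM for Anxa5 and 154 TPM for Anxa3. S100a13, at 1.24 TPM, and S100a1, at 0.920 TPM, came last. The order of neighbours was the same in all 6 libraries for S100a6 above S100a4 and for the steps from S100a11 to S100a10, Anxa2, Anxa1, and from Anxa5 to Anxa3. It held in 5 of 6 libraries for S100a4 above S100a11 and for Anxa1 above Anxa5, and in 2 of 6 for S100a13 above S100a1. Ranges overlapped within WT, though not within MU, for S100a6 and S100a4, for S100a4 and S100a11, and for Anxa1 and Anxa5. These ranges set values of different libraries against each other, while the counts of libraries compare the genes within each library.

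**Figure D1:**
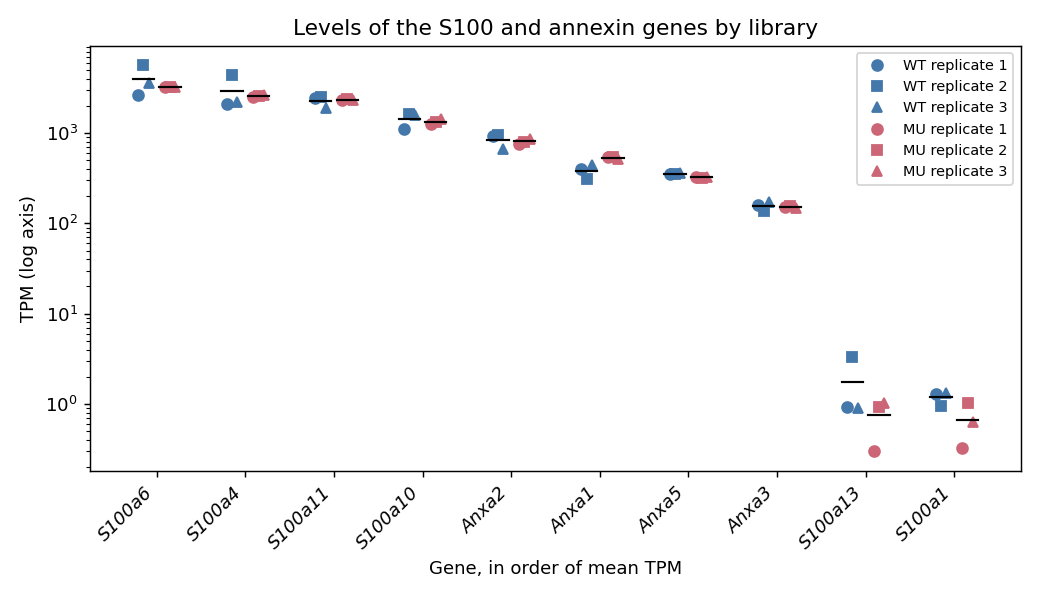
TPM of the 10 genes in each library, on a log axis, with a point for each WT and MU library and a bar at each group mean. S100a6, S100a4, S100a11 and S100a10 lie at 1119.6 TPM or more in every library, the 4 annexins between 137 and 956 TPM, and S100a13 and S100a1 near 1 TPM.

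The 6 S100 genes together took 1.01% of all TPM. Their sum was 8424, 14234 and 9243.5 TPM in WT replicates 1, 2 and 3 and 9416, 9523 and 9704 TPM in MU replicates 1, 2 and 3. WT replicate 2 was the highest of all, and the MU libraries lay between the extremes of WT. The 4 annexins took 0.178% of all TPM, with 1833, 1753 and 1646 TPM in WT and 1784, 1818 and 1855.5 TPM in MU, and their groups overlapped.

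None of the 9 tested genes passed the test between WT and MU, which with 3 libraries a group leaves wide intervals for several of them. Of the 10, 9 passed the filter of at least 1 TPM in at least 3 of the 6 libraries and were tested, and 0 of 9 were higher and 0 of 9 lower at a limma adjusted p under 0.05, where 7.12% of all 14209 tested genes were higher and 11.6% lower, 18.8% in all. At an unadjusted limma p under 0.05, 1 of 9, Anxa1, was called, against 33.4% of all tested genes. The authors' deposited table, made with another test, called 1 of 10, Anxa1, where it called 21.1% of its 17009 genes with an adjusted p. WT and MU values did not overlap for 2 of 9, Anxa1 and Anxa5, against 39.2% of all tested genes, 16.1% with MU above and 23.0% with MU below. The median difference of the 9 genes was -0.08 on the log2(TPM + 1) scale, beside -0.05 over all tested genes. Of the 9, 7 had a negative difference, but for all of these except S100a1 the sign turned under at least 1 of the 20 alternatives tried.

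**Figure D2:**
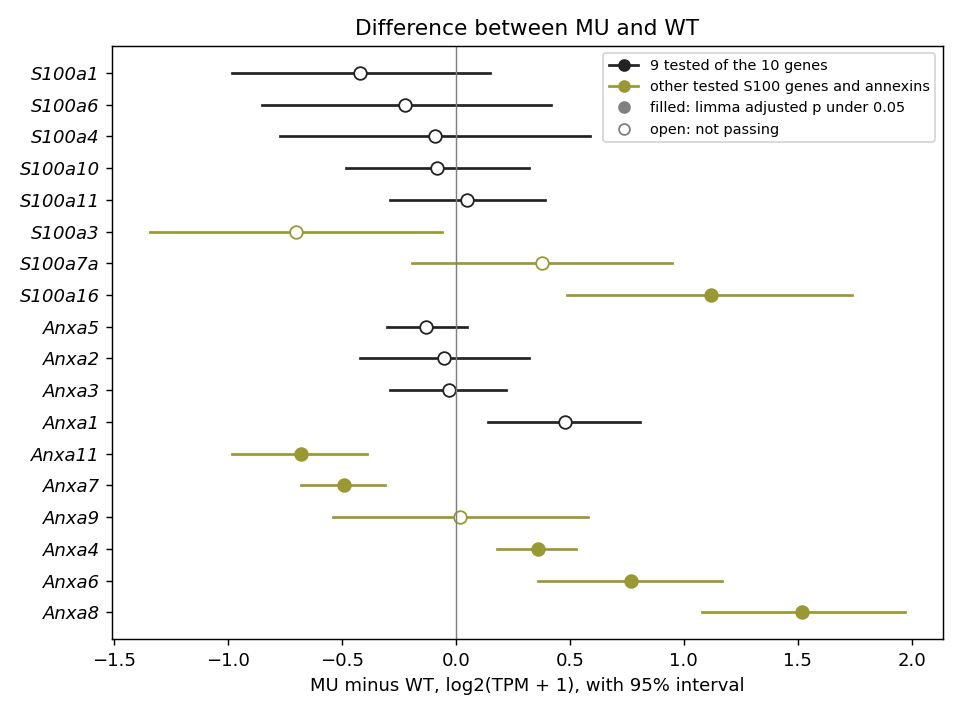
Difference of MU minus WT on the log2(TPM + 1) scale with its 95% interval, for the tested genes among the 10 and for the other tested S100 genes and annexins. Filled points passed at a limma adjusted p under 0.05; all 9 points of the 10 genes are open, and 6 of the other 9 are filled.

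S100a6, which encodes calcyclin, a partner of the CacyBP/SIP ubiquitin ligase adaptor, and S100a4, which encodes a non-muscle myosin binding protein tied to cell movement, had the widest spread of the abundant genes. S100a6 (chr3:90612882-90624181, plus strand) was at 2683, 5672 and 3565 TPM in WT replicates 1, 2 and 3 and at 3257.5 TPM in each of the 3 MU libraries. The MU values are equal at the rounding of the deposited log2 values, whose step of 0.01 is 0.696% of TPM at this level. WT replicate 2 was the highest and WT replicate 1 the lowest library, with MU between them. The difference of MU minus WT was -0.22 on the log2(TPM + 1) scale (95% interval -0.85 to 0.42, SE 0.27, limma adjusted p = 0.623, n = 3 and 3).

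S100a4 (chr3:90603771-90606045, plus strand) was at 2134, 4419.5 and 2209 TPM in WT and at 2538, 2573 and 2646 TPM in MU. Here all MU libraries lay above WT replicates 1 and 3 and below WT replicate 2. The difference was -0.09 on the log2 scale (95% interval -0.77 to 0.59, limma adjusted p = 0.86). WT replicate 2 was 2.00 times the higher of the other WT libraries for S100a4 and 1.59 times for S100a6. Among genes of at least 100 TPM, 4.40% of 1319 had WT replicate 2 at 1.5 times both other WT libraries or more. Without that library the differences turned to 0.25 for S100a4 (limma adjusted p = 0.0817) and to 0.08 for S100a6 (0.739), so the direction of both rested on it.

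**Figure D3:**
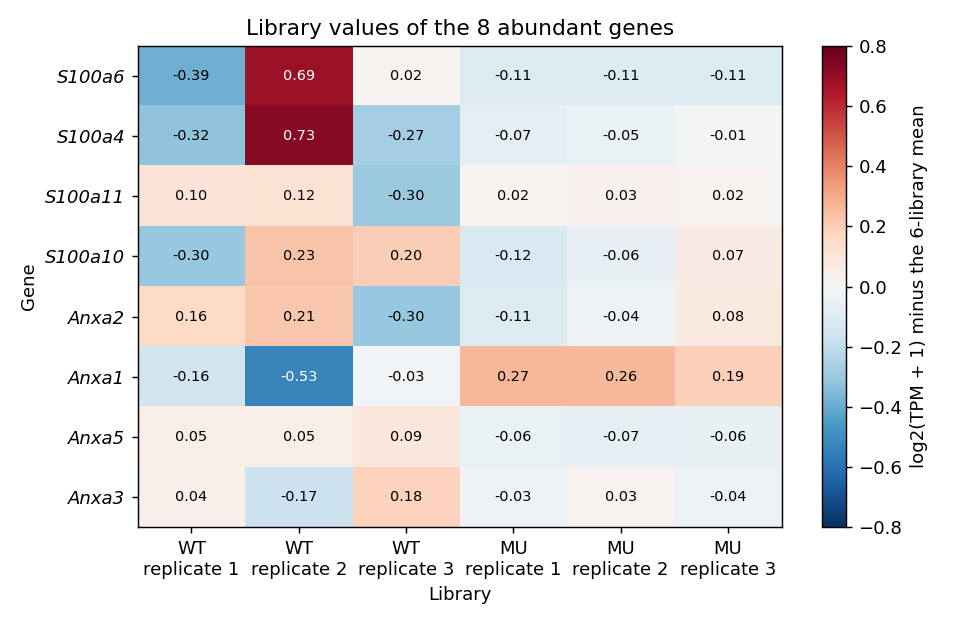
Level of the 8 abundant genes in each library on the log2(TPM + 1) scale, minus the mean of the gene over the 6 libraries; red is above that mean and blue below. WT replicate 2 is 0.73 above for S100a4, 0.69 above for S100a6 and 0.53 below for Anxa1, and Anxa1 is the gene with all MU libraries above and all WT libraries below the mean.

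The spread within groups was unequal. For 9 of the 10 genes the SD of TPM was smaller in MU than in WT, and among all tested genes this was so for 71.5%. S100a4 had an SD of 1298 TPM around a mean of 2921 TPM in WT and of 55.0 TPM around 2586 TPM in MU. Anxa2 had 848 ± 156 TPM in WT and 812 ± 52.5 TPM in MU (SD, n = 3 each), and Anxa5 353 ± 5.60 TPM and 323 ± 2.28 TPM.

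S100a10 and Anxa2 encode the partners of a heterotetramer at the inner face of the plasma membrane, which binds membrane channels and the giant scaffold protein AHNAK and serves as a surface site for plasminogen. S100a10 (chr3:93555080-93564643, plus strand) was at 1119.6, 1617 and 1584 TPM in WT and at 1268.5, 1322 and 1447 TPM in MU. Anxa2 (chr9:69453620-69491795, plus strand) was at 921, 956 and 669 TPM in WT and at 765, 802 and 869 TPM in MU. For both, every MU library lay inside the WT range. The difference was -0.08 for S100a10 (95% interval -0.48 to 0.32, limma adjusted p = 0.78) and -0.05 for Anxa2 (-0.42 to 0.32, limma adjusted p = 0.866).

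The TPM ratio of S100a10 to Anxa2 was 1.22, 1.69 and 2.37 in WT replicates 1, 2 and 3 and 1.66, 1.65 and 1.67 in MU. The MU ratios were nearly equal, and the WT ratios spread around them. Means were 1.76 ± 0.578 in WT and 1.66 ± 0.00859 in MU (SD, n = 3 each). S100a10 values too are stored in steps of 0.696% of TPM, so the MU spread is near the smallest that they can resolve. The difference in mean log2 ratio was -0.03 (two-sided exact permutation p = 0.7, where 0.1 is the smallest that 3 against 3 allows). It was -0.27 without WT replicate 1 and 0.21 without WT replicate 3, so its direction rested on WT replicate 3.

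S100a11 encodes the partner of annexin A1, known from skin and from plasma membrane repair. S100a11 (chr3:93520488-93526287, plus strand) was at 2486, 2520.4 and 1883.5 TPM in WT and at 2351.5, 2368 and 2351.5 TPM in MU. WT replicate 3 was the low library, and MU lay inside the WT range. The difference was 0.05 (95% interval -0.29 to 0.39, limma adjusted p = 0.846), and it was -0.09 without WT replicate 3.

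Anxa1, whose product is a substrate of growth factor receptor kinases and, once outside the cell, a ligand of formyl peptide receptors that limits inflammation, came nearest to a call. Anxa1 (chr19:20373428-20390944, minus strand) was at 403, 311 and 443 TPM in WT and at 542, 538 and 513.5 TPM in MU. Every MU library was above every WT library. Means were 386 ± 67.3 TPM and 531 ± 15.7 TPM (SD, n = 3 each). The difference was 0.48 on the log2 scale (95% interval 0.14 to 0.81, SE 0.14, limma adjusted p = 0.0592), so it did not pass. The authors' deposited table gave Anxa1 a log2 fold change of 0.50 and an adjusted p of 0.00113, in a table that called 9.42% of its genes higher in MU. WT replicate 2 was the lowest library, and without it the difference was 0.33 and passed (limma adjusted p = 0.0302), as it did at 0.58 without WT replicate 3 (0.0298). Over 20 alternatives the difference was positive in each, between 0.33 and 0.59, with adjusted p from 0.00113 to 0.173, and it passed in 7.

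The TPM ratio of S100a11 to Anxa1 was 6.17, 8.10 and 4.26 in WT and 4.34, 4.40 and 4.58 in MU. WT replicate 3 lay just below the MU libraries and the other WT libraries above them. Means were 6.17 ± 1.92 and 4.44 ± 0.127 (SD, n = 3 each), a difference of -0.43 in mean log2 ratio (two-sided exact permutation p = 0.4, smallest possible 0.1). Leaving out 1 library gave -0.67, without WT replicate 3, to -0.21, without WT replicate 2.

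Anxa5, whose product binds phosphatidylserine and is the standard probe for dying cells, was the most even of the abundant genes. Anxa5 (chr3:36448923-36475894, minus strand) was at 351, 349 and 359.8 TPM in WT and at 325, 321 and 324 TPM in MU. All MU libraries lay below all WT libraries, but by little: the difference was -0.13 on the log2 scale (95% interval -0.30 to 0.05, limma adjusted p = 0.272), and 23.0% of all tested genes had MU wholly below WT. Anxa3 (chr5:96793339-96845966, plus strand), an annexin abundant in neutrophils, was at 158.5, 137 and 175 TPM in WT and at 150.5, 157 and 149 TPM in MU. Its MU libraries lay inside the WT range, with a difference of -0.03 (95% interval -0.29 to 0.22, limma adjusted p = 0.857).

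The divergent genes S100a1 and S100a13 were near the limit of the filter. S100a1, which in heart muscle encodes a regulator of calcium handling, was at 1.29, 0.945 and 1.32 TPM in WT and at 0.322, 1.01 and 0.634 TPM in MU (chr3:90511034-90514392, minus strand). MU replicate 2 was above WT replicate 2, so the groups overlapped, and the difference was -0.42 on the log2(TPM + 1) scale, which understates changes at such low levels (95% interval -0.98 to 0.15, limma adjusted p = 0.27). S100a13, whose product takes part in the release of fibroblast growth factor 1 without a signal peptide, was at 0.933, 3.34 and 0.910 TPM in WT and at 0.296, 0.924 and 1.02 TPM in MU (chr3:90514435-90524581, plus strand). Only WT replicate 2 and MU replicate 3 reached 1 TPM, so S100a13 was not tested here, and WT replicate 2 was 3.58 times the higher of the other WT libraries. The authors' deposited table gave S100a13 a log2 fold change of -0.46 and an adjusted p of 0.432.

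The S100 genes outside the 10, apart from S100a16, were near silent. Of the 3 tested, 1, S100a16, rose, where 7.12% of all tested genes were higher. Of 11, 2, S100a9 and S100z, were at 0 in all libraries, and S100a5, S100a7l2, S100a8, S100a14, S100b and S100g did not pass the filter, S100g with up to 1.88 TPM and the others with at most 0.397 TPM. S100a16, a broadly expressed member of the family, was at 3.03, 5.14 and 1.99 TPM in WT and at 7.74, 8.06 and 8.52 TPM in MU. Every MU library was above every WT library, with a difference of 1.12 (SE 0.26, limma adjusted p = 0.0295). That call was lost without WT replicate 1 or without any 1 of the MU libraries (limma adjusted p from 0.0857 to 0.0983). Its size was 0.66 with a pseudocount of 5. S100a3 was at 1.10, 1.07 and 2.44 TPM in WT and at 0.446, 0.680 and 0.440 TPM in MU, a difference of -0.70 that did not pass (limma adjusted p = 0.121), and S100a7a did not pass either (0.38, limma adjusted p = 0.318).

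Among the annexins outside the 10, 5 of 6 tested passed, 3 higher and 2 lower, beside 7.12% higher and 11.6% lower over all tested genes. With the replicate number as a block the counts were 1 higher and 0 lower. Of the 4 annexins among the 10, 0 passed. The 10 were chosen with earlier results known, and the difference between these sets was not tested. Anxa8, rare in WT, was at 0.355, 0.163 and 0.175 TPM in WT and at 2.49, 2.72 and 2.39 TPM in MU, a rise of 1.52 on the log2(TPM + 1) scale (SE 0.19, limma adjusted p = 0.00357) whose size was 3.04 with a pseudocount of 0.1 and 0.53 with 5. Anxa6, the large annexin with a duplicated core, was at 49.1, 54.6 and 34.5 TPM in WT and at 74.2, 77.3 and 81.7 TPM in MU (0.77, SE 0.17, limma adjusted p = 0.0248). Anxa4 was at 56.4, 58.5 and 58.4 TPM in WT and at 74.1, 72.6 and 76.2 TPM in MU (0.36, SE 0.07, limma adjusted p = 0.0187). For these 3 genes all MU libraries were above all WT libraries. Anxa7, also called synexin, fell from 119, 108 and 109 TPM in WT to 80.3, 79.4 and 78.1 TPM in MU (-0.49, SE 0.08, limma adjusted p = 0.00762), and Anxa11, a carrier of RNA granules on lysosomes, from 50.6, 62.6 and 46.5 TPM to 32.6, 31.5 and 33.5 TPM (-0.68, SE 0.12, limma adjusted p = 0.0125). Anxa9 had means of 5.39 ± 1.78 TPM (WT) and 5.33 ± 0.668 TPM (MU), Anxa10 at no more than 0.298 TPM, and Anxa13 at 0 in all libraries. With 1 library left out, Anxa7 and Anxa8 still passed each time, Anxa4 and Anxa6 did not pass without WT replicate 1 or any 1 MU library (limma adjusted p from 0.0615 to 0.0908), and Anxa11 did not without MU replicate 1 or 2 (0.0541 and 0.0594).

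Of 33 genes whose products bind S100 proteins or annexins, under 34 identifiers, 25 were tested, 3 were higher and 3 lower, with a median difference of -0.07. In this list as in those that follow, the counts stand beside 7.12% higher and 11.6% lower over all tested genes and are read as no result about the list. Asic1, an acid-sensing channel brought to the surface by S100A10, rose from 7.75 ± 1.01 to 18.5 ± 0.928 TPM (1.16, limma adjusted p = 0.00213). Myh10, a non-muscle myosin heavy chain, rose from 78.5 ± 1.45 to 105 ± 0.636 TPM (0.42, limma adjusted p = 0.00965), and Sugt1, a co-chaperone bound by S100A6, from 67.8 ± 19.2 to 128 ± 5.56 TPM (0.95, limma adjusted p = 0.0262). Cd44, the hyaluronan receptor, fell from 119.8 ± 10.2 to 80.0 ± 5.40 TPM (-0.58, limma adjusted p = 0.011), Itgb1, the integrin beta 1 chain, from 325 ± 31.3 to 235.5 ± 4.69 TPM (-0.46, limma adjusted p = 0.0206), and Ppp5c, a phosphatase bound by S100 proteins, from 87.5 ± 8.88 to 62.3 ± 4.53 TPM (-0.48, limma adjusted p = 0.0238). Centring on neighbouring genes took Itgb1 to -0.05 (limma adjusted p = 0.766) and Sugt1 to 0.58 (0.122), Itgb1 was lost as well on rescaling without genes of the mitochondrial DNA (0.0522), Sugt1 without the filter (0.0713) and Ppp5c under quantile normalization (0.0608). Among these 6, Asic1 alone passed with each library left out in turn. Without WT replicate 1 the counts were 2 higher and 1 lower, without MU replicate 1 or 2 they were 1 and 1, and without MU replicate 3 they were 1 and 0. Over all 20 alternatives they ran from 1 to 5 higher and from 0 to 6 lower. With the replicate block they were 2 and 0, and with correction for GC content and length 3 and 6. The best known partners of 3 of the abundant S100 proteins, chosen after their values were seen, did not pass. Myh9, the non-muscle myosin heavy chain that S100A4 binds, was at 173, 228 and 132.5 TPM in WT and at 229, 241 and 261 TPM in MU (0.48, limma adjusted p = 0.133). Ahnak, of the scaffold bound by S100A10 with annexin A2, was at 119, 97.6 and 113 TPM in WT and at 132, 135 and 128.5 TPM in MU (0.26, limma adjusted p = 0.108). Cacybp, of the S100A6 partner named above, was at 172.5, 131 and 196.5 TPM in WT and at 117, 119 and 136 TPM in MU (-0.40, limma adjusted p = 0.13). For Myh9 and Ahnak all MU libraries were above all WT libraries, and for Cacybp the groups overlapped. Without WT replicate 2, Myh9 (0.68, limma adjusted p = 0.0196) and Cacybp (-0.57, limma adjusted p = 0.0155) passed. Cacybp passed as well with correction for GC content and length (limma adjusted p = 0.043), and Ahnak under median-of-ratios scaling (0.0367) and quantile normalization (0.0232). In the authors' deposited table the adjusted p was 0.0421 for Myh9 and 0.0166 for Ahnak.

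In plasminogen activation at the cell surface, which the S100A10 and annexin A2 complex supports, 8 of 11 genes were tested, 2 were higher and 3 lower, with a median of -0.05. Plau, urokinase, rose from 13.1 ± 0.734 to 32.6 ± 0.700 TPM (1.25, limma adjusted p = 0.000536). Serpine2, an inhibitor of plasminogen activators, fell from 9.58 ± 0.655 to 0.139 ± 0.0847 TPM (-3.22, limma adjusted p = 0.000164), the urokinase receptor gene Plaur from 60.7 ± 17.2 to 34.1 ± 2.16 TPM (-0.78, limma adjusted p = 0.0325) and tissue activator Plat from 16.6 ± 1.47 to 11.8 ± 1.15 TPM (-0.46, limma adjusted p = 0.0373). Plau and Serpine2 passed with each library left out in turn, and Plaur and Plat did not. The lower count was 1 without WT replicate 1 or any 1 MU library and 2 without WT replicate 2, and the higher count was 1 without any 1 MU library. The lower count was also 1 under median-of-ratios scaling, quantile normalization and centring on neighbouring genes, and without the filter. There Plaur had limma adjusted p from 0.0571 to 0.0826 and Plat from 0.0552 to 0.298, with Plat at -0.20 when centred. The size for Serpine2 depends on the pseudocount, with -5.40 at 0.1 and -1.50 at 5.

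Of 28 genes of calcium-dependent membrane repair and membrane binding, 23 were tested, 4 were higher and 1 lower, with a median of 0.05. Dysf, dysferlin, the membrane repair protein of muscle, rose from 13.3 ± 2.12 to 37.0 ± 0.580 TPM (1.42, limma adjusted p = 0.00128). Ehd2, an ATPase of caveolar necks, rose from 85.0 ± 33.7 to 211 ± 34.0 TPM (1.36, limma adjusted p = 0.021), and Capn2, a calpain chain, from 127 ± 7.58 to 157.5 ± 5.75 TPM (0.31, limma adjusted p = 0.0439). Myof, the ferlin myoferlin, fell from 172.5 ± 23.5 to 116 ± 8.44 TPM (-0.56, limma adjusted p = 0.0236). Capn2 was at 0.09 when centred on neighbouring genes (limma adjusted p = 0.505), Capn2, Ehd2 and Myof were lost without the filter (0.0552 to 0.0659), Capn2 without the intensity trend (0.0799) and Myof on rescaling without genes of the mitochondrial DNA (0.0522). Of these, Dysf alone passed with each library left out in turn. The higher count was 1 without WT replicate 1 or any 1 MU library and 2 without WT replicate 3, and the lower count was 0 without WT replicate 1 or any 1 MU library and 2 without WT replicate 2 or 3.

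Of 32 other genes for proteins with EF-hands, 26 were tested, 6 were higher and 4 lower, with a median of 0.01. Sparc, a secreted matrix glycoprotein, rose from 396 ± 39.6 to 813 ± 5.72 TPM (1.04, limma adjusted p = 0.00163), and the actin bundler Lcp1 (1.38, limma adjusted p = 0.00358) and the visinin-like sensor Hpcal1 (0.67, limma adjusted p = 0.0036) rose too. Ncs1, a neuronal calcium sensor (-0.59, limma adjusted p = 0.00817), Calu, of the secretory pathway (-0.38, limma adjusted p = 0.0167), and Rcn2, of the same family as Calu (-0.44, limma adjusted p = 0.0225), fell. The calls of Calu and Rcn2 were lost without WT replicate 1 or any 1 MU library (limma adjusted p from 0.0542 to 0.0955), where 1 lower gene was left. Calu was lost under quantile normalization too (-0.24, limma adjusted p = 0.0686), and Rcn2 when centred on neighbouring genes (0.0512) and on rescaling without genes of the mitochondrial DNA (0.0575). The size for Lcp1 was 2.13 with a pseudocount of 0.1 and 0.57 with 5.

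The genes around the S100 genes on chromosome 3 were lower in MU more often than higher. Within 1 Mb of the span from S100a1 to S100a11 lay 119 other protein-coding genes, of which 30 were tested, 1 was higher, S100a16, and 7 were lower, with a median of -0.21. On the whole of chromosome 3, 552 other protein-coding genes were tested, 25 were higher and 122 lower, with a median of -0.23, beside -0.07 over all 11358 tested protein-coding genes, of which 863 were higher and 1568 lower. The lower neighbours with the smallest p were Ints3, of the Integrator complex (44.9 ± 1.64 to 27.2 ± 1.30 TPM, limma adjusted p = 0.00316), Ilf2, which encodes an RNA-binding protein (121 ± 1.40 to 81.2 ± 4.76 TPM, limma adjusted p = 0.0051), and the tropomyosin gene Tpm3 (429 ± 10.6 to 307 ± 9.99 TPM, limma adjusted p = 0.0087), whose call was lost without MU replicate 2 (limma adjusted p = 0.0626). The 60 protein-coding genes between S100a9 and S100a11 gave 0 tested genes. The abundant S100a4 with S100a6 and S100a11 with S100a10 thus stand on either side of a stretch with no tested protein-coding gene. Other RNA from that stretch was not counted. The 20 nearest tested genes on each side of S100a4, S100a6, S100a10 and S100a11 had a median difference -0.15 from that of all genes on the log2 scale, and centring on such neighbours turned the difference of S100a4 to 0.06 and of S100a10 to 0.07, with neither passing.

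**Figure D4:**
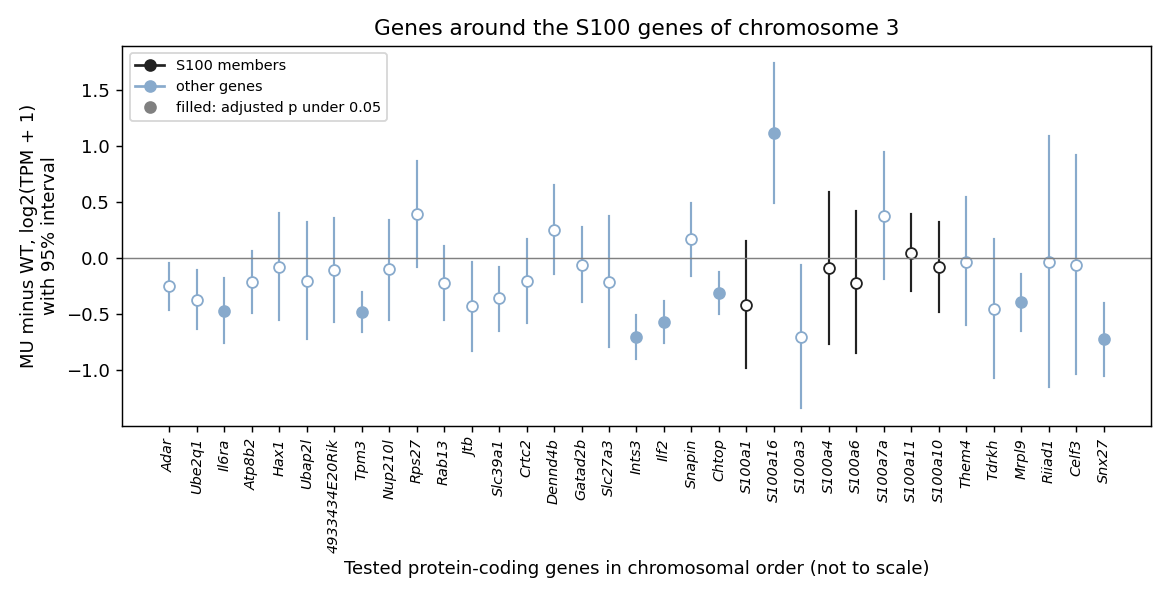
Difference of MU minus WT on the log2(TPM + 1) scale for tested protein-coding genes within 1 Mb of the span from S100a1 to S100a11, in chromosomal order, with 95% intervals. The 5 tested S100 genes of the 10, from -0.42 for S100a1 to 0.05 for S100a11, are open points, and of the 8 filled points, with a limma adjusted p under 0.05, S100a16 lies above 0 and 7 lie below it.

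Annotated genes overlap S100a4 and the 4 annexins, and the part of shared reads in the values was not tested. Gm42674, which overlaps S100a4 on the same strand, had at most 1.48 TPM, and 1500015L24Rik, opposite Anxa1, at most 0.199 TPM. Anxa2 is overlapped by the microRNA gene Mir3109 on the same strand, with up to 10.9 TPM, and by the antisense gene Gm16144, with up to 2.10 TPM. On the same strand, Mir7009 in Anxa5 had up to 1.75 TPM and Gm42603 in Anxa3 up to 0.535 TPM. S100a11-ps, a pseudogene of S100a11, was at 0 in all libraries, and the sources used here do not give how reads shared with such copies were counted.

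Likeness in log2(TPM + 1) over the 6 libraries was sought among tested protein-coding genes outside the 10. Those most like S100a6 were Trabd (Pearson r = 0.987), Banf1 (0.985) and Srp14 (0.976), and 60 such genes reached 0.9. Those most like Anxa2 were Trip10 (0.998), Thap4 (0.998) and Scrib (0.994), among 206 such genes. Within the 10, r with S100a6 ran from -0.68 for Anxa1 to 0.92 for S100a4. With Anxa2 it ran from -0.78 for Anxa3 to 0.90 for S100a11, and was -0.20 for S100a10. All of these values rest on the same 6 libraries, and they describe the profile only.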

How the data were processed

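RNA with poly(A) tails was sequenced from strand-marking libraries, per the labels' protocols. The authors' tools, per the submitters' processing notes, were HISAT2 2.05.0, DESeq2 1.20.0, featureCounts 1.5.0-p3 and FastQC 0.11.4, with the mm10 build; the sources used here do not give their roles, the strand setting or the annotation. The authors deposited log2 values per gene and library, which from the header and the values are log2(TPM + 1), so depth is unknown and no counting interval was computed. The authors also deposited a table of log2 fold changes, group mean TPM, p-values and adjusted p-values.

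Values were returned to TPM and, for the 14209 genes with at least 1 TPM in at least 3 libraries, tested as log2(TPM + 1) with limma 3.58.1 in R 4.3.3 (moderated, intensity trend, two-sided, no covariate) and Benjamini-Hochberg adjustment over all of them. Called means an adjusted p under 0.05, and a fold change is a difference on that log2 scale, which understates changes of low genes. TPM ratios of gene pairs were compared by exact permutation. The test was tried on simulated data first. Positions are from GENCODE M21, matched by identifier for 55141 of 55401 genes, and promoter windows from RefSeq. The alternatives tried were pseudocounts of 0.1 and 5, a replicate block, a minimum of 5 TPM or none, other scalings, limma without trend or robust, correction for GC content and length, centring on the 20 nearest tested genes on each side, leaving out each library, and the authors' table.

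The 10 genes and the gene lists were chosen with earlier results of these data known. Named from each list were the genes called, up to the 3 higher and 3 lower with the smallest adjusted p. Also named were all detected S100 genes and annexins, and the same choice among chromosome 3 neighbours. Likeness named the 3 tested protein-coding genes outside the 10 most correlated with the highest S100 gene and annexin. A gene that this rule selects is not reported here.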

Additional observations from a re-analysis of the deposited data

How the results depend on the processing

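Of the 10 genes, counting those tested in each setting, 0 were called lower in any of the 20 alternatives. The number higher was 1 in place of 0, and the gene was Anxa1, under median-of-ratios scaling (limma adjusted p = 0.0293), quantile normalization (0.0253), correction for GC content and length (0.0287), centring on neighbouring genes (0.048) and in the authors' deposited table (adjusted p = 0.00113); with 1 library left out it ranged from 0 to 1. The cause was not tested.

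The differences that changed sign passed under none of the alternatives. Centring on neighbouring genes gave 0.06 for S100a4, 0.07 for S100a10 and 0.14 for Anxa3. Median-of-ratios scaling gave 0.01 for Anxa2 and 0.02 for Anxa3, quantile normalization 0.00, 0.10 and 0.03 for Anxa2, Anxa3 and Anxa5, and rescaling without genes of the mitochondrial DNA 0.02 for Anxa2 and 0.03 for Anxa3. The correction for GC content and length, with or without the replicate block, gave -0.02 for S100a11 and for Anxa9, and Anxa3 was at 0.01 in the authors' deposited table. With 1 library left out the ranges were -0.27 to 0.25 for S100a4, -0.46 to 0.08 for S100a6, -0.25 to 0.01 for S100a10, -0.09 to 0.12 for S100a11, -0.21 to 0.05 for Anxa2, -0.13 to 0.05 for Anxa3 and -0.22 to 0.20 for Anxa9. The log2 ratio of S100a10 to Anxa2 ranged from -0.27 to 0.21, and that of S100a11 to Anxa1 from -0.67 to -0.21.

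The labels do not say that same-numbered WT and MU libraries are pairs, so they were not taken as pairs. Such libraries did not deviate together (Pearson r across 14209 genes 0.05, 0.02 and -0.07). With the replicate number as a block, 456 genes were higher and 637 lower, against 1012 and 1655 without it. Under the replicate block 0 of the 10 genes passed, and the calls of S100a16 (limma adjusted p = 0.0635), Anxa4 (0.0975), Anxa6 (0.0651), Anxa7 (0.0528) and Anxa11 (0.052) were lost, as were those of Myh10, Cd44, Itgb1, Ppp5c, Plaur, Plat, Capn2, Myof, Calu, Rcn2 and Tpm3 (0.0563 to 0.152), while Anxa8 passed in each of its 19 alternatives. With 1 library left out, 427 to 1153 genes were higher and 644 to 2238 lower, with 629 and 801 without WT replicate 1 and 427 to 465 and 644 to 738 without 1 MU library; the authors' deposited table had 1603 higher. No filter left S100a16 (0.0835) and Anxa6 (0.0644) uncalled, and, of the S100 genes and annexins, centring on neighbours left Anxa6 (0.0699) uncalled. TPM keeps no depth, so how far counting limits S100a1 and S100a13 is unknown.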
